A study of Homo sapiens with 19 samples.

Results

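The OAS family comprises the 2'-5'-oligoadenylate synthetase genes OAS1, OAS2 and OAS3 and the OAS-like gene OASL. Its 4 members were taken by gene symbol from the 78894 genes of the count table, and all 4 passed the filter on low counts that left 23122 genes for testing. Each member had at least 16 counts in every library, so none of them passed only through a group in which it was high. RNA was sequenced in 19 libraries of HepaRG, a human hepatic line that was differentiated in culture towards hepatocyte-like and biliary-like cells. Batch 1 held 3 libraries with ADAR siRNA, 3 with ADARB1 siRNA and 3 with a negative control siRNA (siNC). Batch 2 held 2 libraries with BX795 and ADAR siRNA, 3 with BX795, 2 with interferon alpha (IFNa) and 3 siNC libraries of its own. The siRNAs were used at 20 nM, BX795 at 1 µM and IFNa at 1000 U/mL, and both compounds were added on the day of transfection and kept through the media changes. The labels leave it unsaid if cells given only IFNa or only BX795 were also transfected with siNC. All groups share the same line, which is labelled as hepatic carcinoma, and the knockdowns rest on 1 siRNA per gene. No label tells if replicates came from separate cultures, and p-values therefore measure the spread between libraries alone.

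OAS1, OAS2 and OAS3 are enzymes that bind double-stranded RNA and then join ATP into short 2'-5'-linked oligoadenylates (2-5A). These oligoadenylates are a messenger of the antiviral response. OASL lacks the synthetase activity and is known for enhancing signalling through the RNA sensor RIG-I. All 4 genes are classical interferon-stimulated genes. Type I interferon signals through JAK1 and TYK2 to a complex that holds STAT2 and IRF9 and binds paired GAAA-type elements in promoters. ADAR and ADARB1 deaminate adenosines in double-stranded RNA, and BX795 inhibits TBK1 and IKK epsilon, a pair of kinases downstream of nucleic acid sensors.

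OAS1, OAS3 and OAS2 lie side by side on the plus strand of chromosome 12 in GRCh38.p14, and OASL lies on the minus strand farther along the same chromosome. OAS1 (ENSG00000089127.15) spans chr12:112906962-112933219 and OAS3 (ENSG00000111331.14) chr12:112938474-112973251. OAS2 (ENSG00000111335.14) spans chr12:112978519-113011723 and OASL (ENSG00000135114.14) chr12:121017761-121039246. Promoters are shown because all 4 members moved together across the groups below, and they are those of OAS1 and OAS3, the members with an entry in the RefSeq promoter table. Each run is the 250 bases before the RefSeq start site on the plus strand of GRCh38.p14, chr12:112906712-112906961 for OAS1 and chr12:112938224-112938473 for OAS3. Capitals mark every match to GNAANNGAAA, the paired element described above in its looser form, searched on both strands.
OAS1: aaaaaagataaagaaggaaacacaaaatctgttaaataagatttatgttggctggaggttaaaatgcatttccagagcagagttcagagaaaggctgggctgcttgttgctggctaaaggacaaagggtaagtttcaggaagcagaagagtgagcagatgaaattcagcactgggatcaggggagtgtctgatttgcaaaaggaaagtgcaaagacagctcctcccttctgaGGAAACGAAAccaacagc
OAS3: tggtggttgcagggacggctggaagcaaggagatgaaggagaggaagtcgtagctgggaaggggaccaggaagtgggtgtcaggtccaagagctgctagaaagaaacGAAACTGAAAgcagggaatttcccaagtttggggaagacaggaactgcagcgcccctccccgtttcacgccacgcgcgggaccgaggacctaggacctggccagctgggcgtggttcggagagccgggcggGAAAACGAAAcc

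OAS1 held 1 match, GGAAACGAAA, from 18 to 9 bases before its start site. OAS3 held 2 matches, GAAACTGAAA from 143 to 134 bases and GAAAACGAAA from 12 to 3 bases before its start site. Both promoters thus carry a match within 20 bases of the start, and OAS3 carries a second one farther upstream. Of 35116 RefSeq promoter windows of the same length, 2408 (6.86%) held GNAANNGAAA and 1061 (3.02%) held the stricter GAAANNGAAA, every match of which is also a match of the looser form. The matches in OAS3 met the stricter form and that in OAS1 did not. A match to TTCNNNGAA, a palindromic element known from interferon gamma signalling, lay from 168 to 160 bases before the OAS1 start and was present in 6.57% of windows. These are letter matches and were not measured as binding.

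Total counts ranged from 42.7 to 77.1 M per library in batch 1 and from 13.1 to 34.7 M in batch 2, so weak genes such as OASL carry wider errors in batch 2. Levels are given as TMM-scaled CPM, the counts of a gene scaled to a common library size. ADAR RNA fell to 62.6, 60.6 and 70.6 CPM with ADAR siRNA, against 260, 261 and 264 CPM with siNC, and to 52.5 and 55.8 CPM with BX795 and ADAR siRNA, against 252, 280 and 272 CPM with BX795. ADARB1 RNA fell to 11.1, 10.3 and 11.3 CPM with ADARB1 siRNA, against 33.5, 31.4 and 33.1 CPM with siNC. Both targets were thus lower in the groups labelled with their siRNA. ADARB1 was also called lower, though far less, with ADAR siRNA (log2 -0.27 ± 0.07, adjusted p = 0.00692, edgeR, and -0.22, adjusted p = 0.051, without ADAR siRNA replicate 2). Against siNC of batch 2 it was lower with BX795 and ADAR siRNA (-0.45 ± 0.08, adjusted p = 0.000194) and with BX795 (-0.27 ± 0.07, adjusted p = 0.00417, a call that ended under 2 alternatives). ADAR differed by 0.03 ± 0.08 with ADARB1 siRNA and was not called. All 7 hepatocyte markers were detected in every group. Of the immune markers, the pan-leukocyte PTPRC stayed at or under 0.373 CPM and CD3E at or under 0.148 CPM. ITGAX stayed at or under 0.587 and LYZ at or under 1.54 CPM, while CD14 lay at 3.54 to 15.3 and CD68 at 14.2 to 42 CPM. Of the biliary and progenitor markers, EPCAM was at or under 0.0167 CPM. KRT19 lay at 58.7 to 761, KRT7 at 1.23 to 11.4, SOX9 at 14.4 to 36 and SPP1 at 4.45 to 87 CPM. The summed hepatocyte markers lay between 51682 and 75303 CPM in batch 1 and between 9484 and 15866 CPM in batch 2, and levels were compared within batches only.

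In batch 2, replicate 1 of siNC and replicate 1 of BX795 stood apart from the other replicates of their groups. The chi-square per gene between replicates, which is near 1 where libraries differ by counting noise alone, was 43.6 and 48.4 for siNC replicate 1 with the others, and 12.3 between those. For BX795 it was 26.9 and 25.5 for replicate 1 with the others, and 5.89 between those. The 2 libraries with BX795 and ADAR siRNA differed by 64.4 and the 2 with IFNa by 43.2, and in a pair neither can be named as the one apart. In batch 1 the values ran from 5.89 to 19.3. Libraries of batch 2 also differed in GC trend, the median log2 deviation from the batch mean of GC-rich genes minus that of GC-poor genes. It was 0.27, 1.05 and 0.86 with siNC, -0.41 and 0.07 with IFNa and -0.19, -0.6 and -0.48 with BX795. With BX795 and ADAR siRNA it was 0 and -0.54, and in batch 1 it ran from -0.1 to 0.15. Each siNC library of batch 2 thus lay above every treated library, and a GC correction is among the alternative fits below. Members' changes that rest on siNC replicate 1 or BX795 replicate 1 are given below also without that library.

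Between genes, levels were compared per length, as CPM per kb of merged exons. In siNC libraries of batch 1, OAS3 averaged 2.45 ± 0.196, OAS1 2.28 ± 0.205, OAS2 1.75 ± 0.137 and OASL 0.361 ± 0.0275 CPM per kb (SD, n = 3). The libraries of OAS3 and OAS1 overlapped in that order, and those of OAS1 and OAS2 did not. In siNC libraries of batch 2 the order was OAS2 (2.03 ± 0.112), OAS3 (1.81 ± 0.347), OAS1 (1.41 ± 0.156) and OASL (0.325 ± 0.0398 CPM per kb), and the first 3 overlapped with their neighbours. OASL was the least abundant member in every library, and the family's RNA without interferon or ADAR siRNA came almost wholly from the 3 synthetase genes. The antisense gene that crosses OAS1, OAS3 and OAS2 (ENSG00000257452.1) had 0 counts in all 19 libraries.

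With ADAR siRNA all 4 members rose, by 4.73 to 11.0 times. No library overlapped the siNC range, which was not counted over all tested genes. OAS1 had 47.8, 53.8 and 68.4 CPM with ADAR siRNA, against 11.1, 12.3 and 10.3 CPM with siNC. OAS2 had 68.1, 84.2 and 95.6 CPM with ADAR siRNA, against 11.4, 11.5 and 9.97 CPM with siNC. OAS1 and OAS2 thus began at the same CPM in siNC libraries, and OAS2 ended above OAS1 in each ADAR siRNA library. OAS3, which encodes the largest synthetase, had 72.5, 101 and 113 CPM with ADAR siRNA, against 18.7, 21.9 and 20.0 CPM with siNC. OASL had 10.8, 13.6 and 17.6 CPM with ADAR siRNA, against 1.38, 1.21 and 1.22 CPM with siNC. The groups were far apart for every member, and the spread among the ADAR siRNA libraries was wider than that among the siNC libraries.

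On the log2 scale the rise was 2.34 ± 0.13 for OAS1, 2.92 ± 0.11 for OAS2, 2.24 ± 0.13 for OAS3 and 3.46 ± 0.19 for OASL (± SE). The adjusted p-values of edgeR's quasi-likelihood test over all genes were 8.03e-10, 7.87e-12, 9.9e-10 and 3.72e-10 in that order of genes. Calls were made at adjusted p-values below 0.05, and 4 of 4 members were called higher where 11.0% of all tested genes were called higher and 10.8% lower. The members' median log2 fold change was 2.63, against a median of -0.019 over all tested genes. The 95% interval of OASL (3.05 to 3.86) lay above those of OAS1 (2.04 to 2.63) and OAS3 (1.95 to 2.53), and that of OAS2 ran from 2.67 to 3.16. By size of rise the members ranked 89 (OASL), 107 (OAS2), 169 (OAS1) and 188 (OAS3) among the 23122 tested genes.

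**Figure D1:**
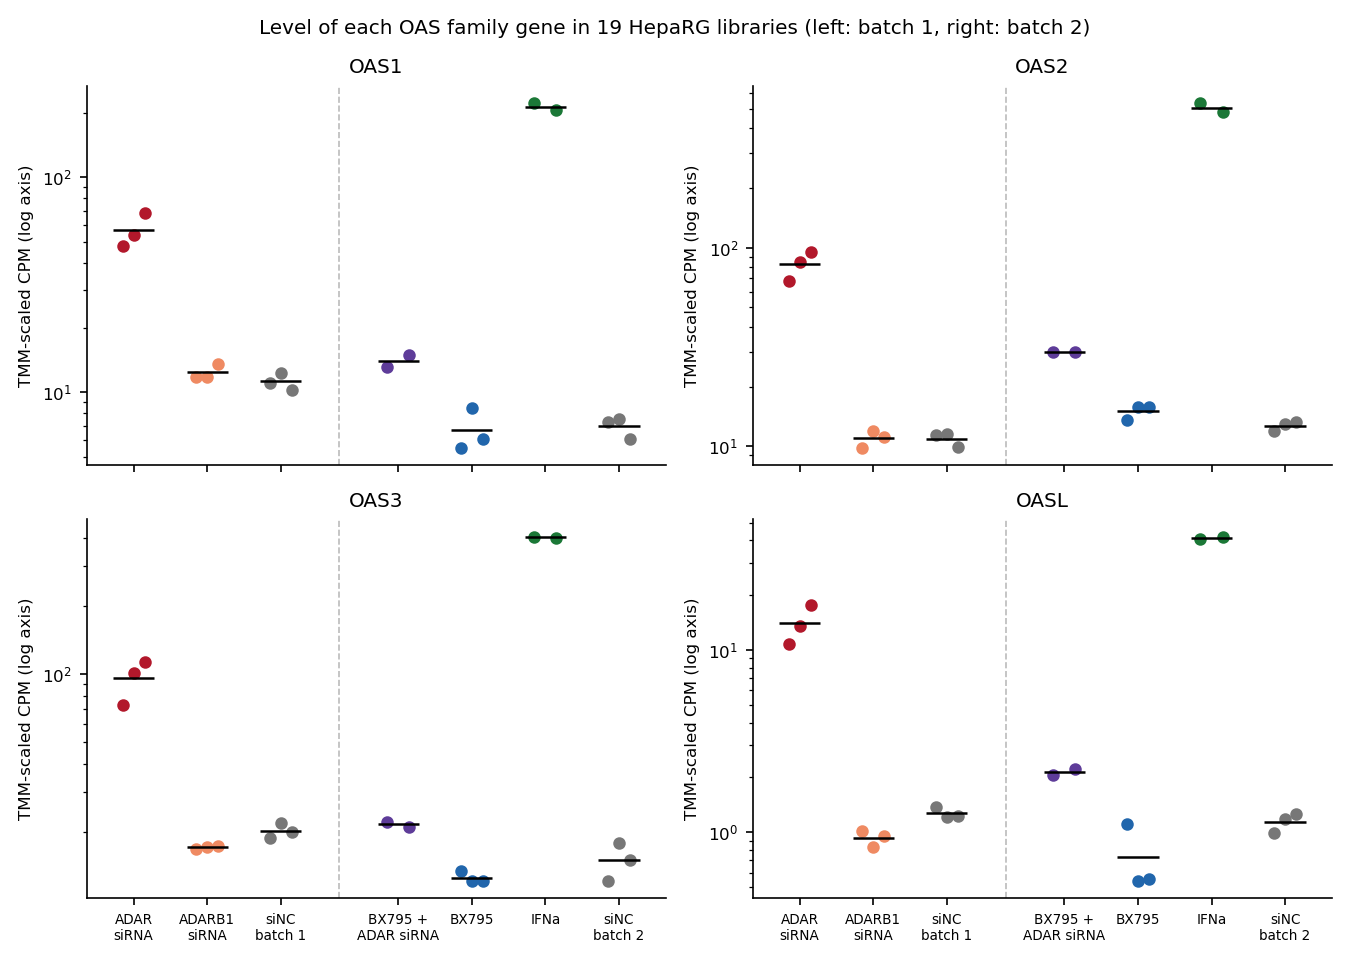
TMM-scaled CPM on a log axis for OAS1, OAS2, OAS3 and OASL in each library (points), with the group mean as a bar, batch 1 left and batch 2 right of the dashed line. In batch 1 the 3 ADAR siRNA libraries stand above both other groups, and in batch 2 the 2 IFNa libraries stand highest, with the libraries given BX795 and ADAR siRNA above the BX795 and siNC libraries.

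None of 3 partner genes of the 2-5A pathway passed the test with ADAR siRNA. ABCE1, which encodes a ribosome recycling factor, differed by 0.10 ± 0.10 on the log2 scale, and the 2-5A-degrading phosphodiesterases PDE12 and AKAP7 (for AKAP7, a role known from the mouse) by -0.16 ± 0.07 and -0.17 ± 0.13. The median over the 3 partners was -0.16.

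Of 10 interferon signal transducers and IRFs, 4 rose with ADAR siRNA and none fell, with a median of 0.16. IRF7, a transcription factor induced by interferon, rose by 1.65 ± 0.18 on the log2 scale and IRF9 by 1.61 ± 0.09, followed by IRF1 and JAK1. STAT2 differed by 0.03 ± 0.06 and the receptor chains IFNAR1 and IFNAR2 by -0.10 ± 0.06 and 0.07 ± 0.08, none of which passed the test. Of 9 tested double-stranded RNA sensors and relay genes 5 rose and 1 fell, with a median of 0.54. RIGI, which encodes RIG-I, rose by 2.11 ± 0.14, the sensor IFIH1 by 1.03 ± 0.09 and the kinase EIF2AK2 (PKR) by 0.90 ± 0.08, and the adaptor gene MAVS fell by 0.30 on the log2 scale (adjusted p = 0.0348, edgeR). The MAVS call ended under 7 of 13 alternatives, among them the replicate block and the omission of any 1 of the 6 libraries (adjusted p = 0.0563 to 0.113), and the other calls of both lists stood under all 13.

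Of 8 type I and III interferon genes only IFNE reached the filter, and it differed by -0.49 ± 0.39 on the log2 scale (adjusted p = 0.428). The ADAR siRNA group held 2 counts of IFNB1, 1 of IFNL1, 5 of IFNL2 and 6 of IFNL3 in sum, against 0 of each in the siNC group of batch 1. Reads of the near-identical IFNL2 and IFNL3 may be split between them. Together the pair had 3, 4 and 4 counts in the ADAR siRNA libraries, against 0 in each siNC and each ADARB1 siRNA library of batch 1. These counts are above 0 in every ADAR siRNA library and too low for the test. In sum the pair had 11 counts with ADAR siRNA, against 0 with siNC and 0 with ADARB1 siRNA. A count of 0 allows 3 counts in a single library, but that limit does not describe a group with 0 in each library. The difference between the groups was not tested. Beside the members' rise, the summed hepatocyte markers were lower with ADAR siRNA (51682 to 55126 CPM) than with siNC (70145 to 75303 CPM). The summed biliary and progenitor markers were at 831 to 861 CPM with ADAR siRNA, against 350 to 389 CPM with siNC. The summed immune markers were at 40.1 to 43.4 CPM with ADAR siRNA, against 42.4 to 52.4 CPM with siNC, and CD3E was at 0 in the ADAR siRNA libraries. The summed stellate markers were at 52.7 to 56.6 CPM with ADAR siRNA, against 42.6 to 44 CPM with siNC, and the endothelial markers at 1.6 to 2.17 CPM with ADAR siRNA, against 0.776 to 1.04 CPM with siNC, with CDH5 at 0 with ADAR siRNA. Single markers did not all pass the test. Of 7 hepatocyte markers 4 were called lower, and of 4 tested immune markers only CD68 was, at a median log2 fold change of 0.24. Called higher were 4 of 4 tested biliary and progenitor, 2 of 3 stellate and 1 of 2 tested endothelial markers. In bulk RNA, fewer cells of a type and less RNA per cell cannot be told apart, and the part of the hepatocyte, biliary, stellate and endothelial markers in the rise was not tested.

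ADARB1 siRNA left the family near its control level. OAS1 had 11.8, 11.8 and 13.5 CPM and OAS2 had 9.84, 12.0 and 11.2 CPM with ADARB1 siRNA, both overlapping the siNC values above. OAS3 had 16.8, 17.2 and 17.3 CPM and OASL 1.02, 0.833 and 0.948 CPM with ADARB1 siRNA, each below every siNC library. Such a lack of overlap was not counted over all tested genes. The log2 differences were 0.13 ± 0.14 for OAS1, 0.01 ± 0.11 for OAS2, -0.24 ± 0.13 for OAS3 and -0.44 ± 0.21 for OASL. Their 95% intervals ran from -0.16 to 0.43, -0.23 to 0.26, -0.53 to 0.04 and -0.91 to 0.02. None of the 4 was called, with adjusted p-values of 0.33 to 0.99 (edgeR), where 2.09% of all tested genes were called higher and 2.51% lower. In a fit of the compared groups alone OAS3 passed the test as lower (-0.25, adjusted p = 0.0176, edgeR). None of the 10 transducers was called in either direction, and of the sensors and relay genes only IKBKE was, as lower (-0.36 ± 0.10). The IKBKE call ended under 8 of 13 alternatives, among them the omission of any 1 of the 6 libraries (adjusted p = 0.076 to 0.156 over the 8). The summed hepatocyte markers were at 61426 to 64576 CPM with ADARB1 siRNA, against 70145 to 75303 CPM with siNC. The stellate markers were at 47.4 to 51 CPM with ADARB1 siRNA, against 42.6 to 44 CPM with siNC. The summed biliary and progenitor, immune and endothelial markers overlapped those with siNC. The part of these markers in the members' values was not tested.

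Set directly against ADARB1 siRNA, ADAR siRNA raised all 4 members, by 2.20 ± 0.13 (OAS1), 2.91 ± 0.11 (OAS2), 2.49 ± 0.13 (OAS3) and 3.90 ± 0.19 (OASL) on the log2 scale. In this comparison 9.90% of all tested genes were called higher and 9.65% lower. The comparison shares its ADAR siRNA libraries with the one against siNC. Transfection of a targeting siRNA is common to both groups.

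All 4 members stood higher with IFNa than with siNC, by 27.1 to 40.0 times, the largest rises of the family in batch 2. If the IFNa libraries were not transfected, which is not stated, IFNa and the lack of transfection cannot be told apart in this comparison. OAS1 had 221 and 205 CPM with IFNa, against 7.27, 7.52 and 6.08 CPM with siNC of batch 2. OAS2 had 533 and 480 CPM with IFNa, against 11.9, 13.0 and 13.3 CPM with siNC. Both genes left their control range by more than an order of magnitude. OAS3 had 404 and 397 CPM with IFNa, against 12.1, 17.8 and 15.0 CPM with siNC. OASL had 40.5 and 42.0 CPM with IFNa, against 0.988, 1.18 and 1.26 CPM with siNC. The libraries did not overlap for any member, which was not counted over all tested genes.

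The log2 rise with IFNa was 4.92 ± 0.16 for OAS1, 5.32 ± 0.13 for OAS2, 4.76 ± 0.16 for OAS3 and 5.20 ± 0.23 for OASL, so the members differed less in their response than with ADAR siRNA. The adjusted p-values were 1.92e-13, 8.87e-15, 1.87e-13 and 8.12e-12 (edgeR), and OAS2 had the smallest p of all tested genes (rank 1). All 4 members were called higher, where 18.4% of all tested genes were called higher and 15.9% lower, and they ranked 73 (OAS2), 74 (OASL), 77 (OAS1) and 81 (OAS3) by size of rise. The family's median was 5.06, against -0.022 over all tested genes. Per length, OAS2 reached 80.9 ± 5.97 CPM per kb, OAS3 48.5 ± 0.571, OAS1 43.0 ± 2.23 and OASL 11.7 ± 0.305 (SD, n = 2), and no 2 neighbours in this order overlapped. Without siNC replicate 1, the library that stood apart, the rises were 4.95 (OAS1), 5.26 (OAS2), 4.6 (OAS3) and 5.07 (OASL), all called.

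Of the 3 partner genes 1 was called with IFNa. ABCE1 rose by 0.51 ± 0.12 (adjusted p = 0.00257, edgeR), a call that ended with a GC correction (0.13, adjusted p = 0.101) and without IFNa replicate 1 (0.40, adjusted p = 0.0852). Among the 10 transducers 5 rose and 4 fell, with a median of 0.07. Of these 9 calls 4 ended under some of 12 alternatives: JAK1 under 8, TYK2 under 5, IRF2 under 3 and IRF3 under 1. IRF7 rose by 2.74 ± 0.21, IRF9 by 2.50 ± 0.10 and STAT2 by 1.03 ± 0.06, while IFNAR1 fell by 0.57 and IFNAR2 by 0.63 on the log2 scale. Of the 9 sensors and relay genes 6 rose and 1 fell, with a median of 1.48, led by RIGI (4.41 ± 0.17), IFIH1 (2.86 ± 0.11) and DHX58 (2.19 ± 0.13). Of these 7 calls that of TBK1, a rise, ended under 3 alternatives. ADAR, itself interferon-inducible, rose by 1.69 ± 0.09. The summed immune markers lay at 38.4 to 40.7 CPM with IFNa, within the 36.6 to 41.4 CPM of the siNC libraries. The summed hepatocyte markers lay at 11498 to 12167 CPM with IFNa, against 12074 to 14710 CPM with siNC. Other markers did not overlap: the summed stellate markers were at 151 CPM in both IFNa libraries, against 115 to 134 CPM with siNC, the biliary and progenitor markers at 145 to 171 CPM with IFNa, against 185 to 260 CPM with siNC, and the endothelial markers at 0.205 to 0.292 CPM with IFNa, against 0.296 to 1.06 CPM with siNC. Single markers did not all follow these sums. Of the 7 hepatocyte markers 5 were called lower and 0 higher, with a median log2 fold change of -0.41. SPP1 was called higher and KRT19 lower among the biliary and progenitor markers (median -0.07), and CD68 higher and CD14 lower among the immune markers (median -0.06). Their part in the rise was not tested.

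**Figure D2:**
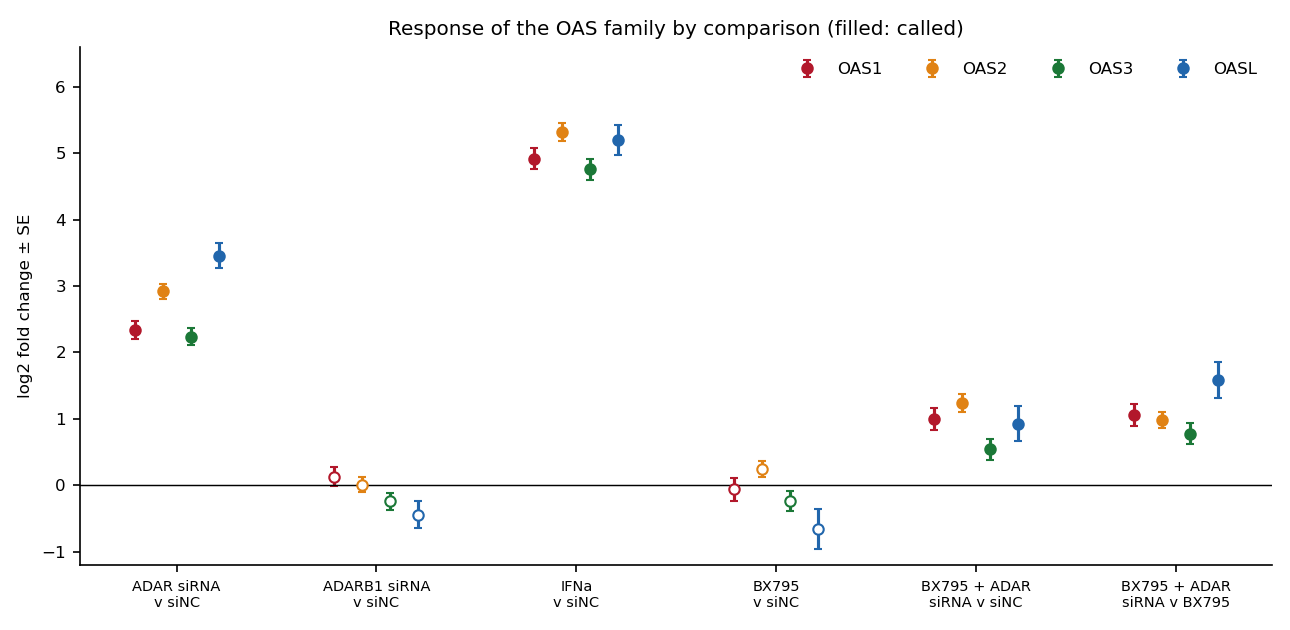
Log2 fold change with its SE (y axis) for the 4 members in 6 within-batch comparisons (x axis), filled where called. The members rise with ADAR siRNA and with IFNa and are uncalled with ADARB1 siRNA and with BX795.

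With BX795 and no ADAR siRNA, no member differed from siNC past the test, where 23.4% of all tested genes were called higher and 23.7% lower. If the BX795 libraries were not transfected, which is not stated, BX795 and the lack of transfection cannot be told apart in this comparison. OAS1 had 5.52, 8.43 and 6.09 CPM and OAS3 had 13.4, 12.1 and 12.1 CPM with BX795, both overlapping the siNC values above. OAS2 had 13.5, 15.7 and 15.8 CPM with BX795, each just above the siNC libraries, which was not counted over all tested genes. OASL had 1.11, 0.539 and 0.551 CPM with BX795, against 0.988, 1.18 and 1.26 CPM with siNC, so that replicate 1 sat at the siNC level and the others, with 16 and 18 counts, below it. The log2 differences were -0.06 ± 0.17 (OAS1), 0.25 ± 0.12 (OAS2), -0.24 ± 0.15 (OAS3) and -0.66 ± 0.30 (OASL), with adjusted p-values of 0.792, 0.109, 0.208 and 0.0775 (edgeR). The 95% intervals ran from -0.43 to 0.31, -0.02 to 0.51, -0.57 to 0.09 and -1.31 to -0.01. Without BX795 replicate 1, which stood apart, OASL was called lower (-1.02, adjusted p = 0.00833), and OAS1, OAS2 and OAS3 stayed uncalled at 0.06, 0.33 and -0.27. Without siNC replicate 1 no member was called, with -0.01 (OAS1), 0.21 (OAS2), -0.38 (OAS3) and -0.77 (OASL). OAS2 was called higher with no expression filter (0.30, adjusted p = 0.0237).

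Of the partner genes ABCE1 rose with BX795, by 0.49 ± 0.10 on the log2 scale, which a GC correction took to 0.05 (adjusted p = 0.485), and PDE12 fell by 0.17 on the log2 scale (adjusted p = 0.0475, edgeR), a call that ended in 9 of the alternatives. RIGI rose by 1.53 ± 0.17 and TLR3 by 0.73 ± 0.15, while EIF2AK2 fell by 0.31 and MAVS by 0.69 on the log2 scale, so that 4 of the 9 sensors and relay genes rose and 2 fell, with a median of 0.21. Of the 10 transducers 2 rose (IRF2, JAK1) and 2 fell (IRF3, IRF7), with a median of -0.01. With a GC correction IRF7 stood at 0.05 and the relay gene TBK1, a rise in the main fit, at 0.11, and neither was called. The summed immune markers were at 23.8 to 26.2 CPM with BX795, against 36.6 to 41.4 CPM with siNC, and the stellate markers at 82.5 to 86.3 CPM with BX795, against 115 to 134 CPM with siNC. The biliary and progenitor markers were at 105 to 121 CPM with BX795, against 185 to 260 CPM with siNC, and the hepatocyte markers at 14745 to 15866 CPM with BX795, against 12074 to 14710 CPM with siNC. Single markers did not all follow these sums. Of the hepatocyte markers 2 were called higher (APOB, TTR) and 3 lower (ALB, APOA1, FGB), with a median log2 fold change of -0.20. Of the biliary and progenitor markers 2 were called higher (KRT7, SOX9) and 2 lower (KRT19, SPP1), with a median of 0.02. Of the stellate markers LRAT was called higher and DCN and PDGFRB lower. Their part in these values was not tested.

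With BX795 present, all 4 members stood higher with ADAR siRNA, at 1.72 to 3.01 times the BX795 level. If the libraries with only BX795 were not transfected, which is not stated, ADAR siRNA and transfection cannot be told apart in this comparison. OAS1 had 13.1 and 14.9 CPM with BX795 and ADAR siRNA, against 5.52, 8.43 and 6.09 CPM with BX795. OAS2 had 29.7 and 30.0 CPM with both, against 13.5, 15.7 and 15.8 CPM with BX795. OAS3 had 22.1 and 21 CPM with both, against 13.4, 12.1 and 12.1 CPM with BX795. OASL, the weakest of the 4, had 2.05 and 2.22 CPM with both, against 1.11, 0.539 and 0.551 CPM with BX795. No member's libraries overlapped between these groups, which was not counted over all tested genes.

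The log2 rise over BX795 was 1.06 ± 0.16 for OAS1 (adjusted p = 0.000301), 0.99 ± 0.12 for OAS2 (3.31e-05), 0.78 ± 0.16 for OAS3 (0.00272) and 1.59 ± 0.27 for OASL (0.000656, edgeR). All 4 members were called higher, where 5.06% of all tested genes were called higher and 4.46% lower, and the family's median was 1.03, against 0.022 over all tested genes. Without BX795 replicate 1 the rises were 0.91 (OAS1), 0.88 (OAS2), 0.78 (OAS3) and 1.92 (OASL), all called. None of the 3 partner genes was called. Among the transducers IRF7 rose by 1.03 ± 0.22, IRF9 by 0.84 ± 0.10 and JAK1 by 0.29 ± 0.08. Of the sensors and relay genes EIF2AK2 rose by 0.39 ± 0.09. Of 12 alternatives, the JAK1 call ended under 7, the EIF2AK2 call under 3 and the IRF7 call under 2. Among these were, for each gene, the omission of 1 library and a fit of fewer groups. RIGI differed by 0.45 ± 0.16 and did not pass the test (adjusted p = 0.0851). The summed hepatocyte markers were at 9484 to 11864 CPM with both, against 14745 to 15866 CPM with BX795, and the biliary and progenitor markers at 182 to 218 CPM with both, against 105 to 121 CPM with BX795. The immune markers were at 20 to 21 CPM with both, against 23.8 to 26.2 CPM with BX795, and the stellate markers at 75.7 to 78.7 CPM with both, against 82.5 to 86.3 CPM with BX795. Single markers did not all pass the test. Called lower were 3 of 7 hepatocyte markers (ALB, APOB, FGB), 1 of 4 tested immune markers (LYZ) and 1 of 3 stellate markers (DCN). Of 4 tested biliary and progenitor markers 2 were called higher (KRT19, SPP1). Their part in the rise was not tested.

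Against siNC of batch 2 the same libraries stood higher by 1.00 ± 0.17 (OAS1), 1.24 ± 0.13 (OAS2), 0.54 ± 0.16 (OAS3) and 0.93 ± 0.27 (OASL) on the log2 scale. All 4 were called higher, where 21.4% of all tested genes were called higher and 18.9% lower. The calls of OAS1 and OAS2 stood in every alternative fit (1.00 and 1.15 without siNC replicate 1), and those of OAS3 and OASL did not. OAS3 (adjusted p = 0.011) lost its call without siNC replicate 1 (0.36, adjusted p = 0.0869) and without BX795 and ADAR siRNA replicate 1 (0.49, adjusted p = 0.0546). OASL (adjusted p = 0.0101) lost its call without siNC replicate 1 (0.78, adjusted p = 0.0563) and without BX795 and ADAR siRNA replicate 2 (0.85, adjusted p = 0.0927). The comparison shares its siNC libraries with that of BX795 alone.

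Against IFNa the libraries with BX795 and ADAR siRNA differed by -3.93 ± 0.17 (OAS1), -4.09 ± 0.14 (OAS2), -4.22 ± 0.17 (OAS3) and -4.27 ± 0.23 (OASL) on the log2 scale. They thus stood at 0.0658, 0.0589, 0.0538 and 0.0519 times the IFNa level, a like share for all members. These groups may also differ in transfection, which is not stated for IFNa. All 4 were called lower, where 10.1% of all tested genes were called lower and 10.2% higher.

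The response to ADAR siRNA was smaller with BX795 than without it for each member. The difference of the log2 responses, with BX795 minus without, was -1.27 ± 0.21 for OAS1 (adjusted p = 0.00148), -1.93 ± 0.17 for OAS2 (3.31e-06), -1.46 ± 0.20 for OAS3 (0.000298) and -1.87 ± 0.34 for OASL (0.00306, edgeR). All 4 were called lower, where 2.00% of all tested genes were called lower and 1.42% higher, and the family's median was -1.66, against 0.042 over all tested genes. Without BX795 replicate 1 the differences were -1.44 (OAS1), -2.05 (OAS2), -1.47 (OAS3) and -1.55 (OASL), all called. In fold terms OAS2 rose 1.99 times with BX795 and 7.56 times without it. ADAR itself fell by 2.31 with BX795 and by 2.02 without it on the log2 scale, a difference of -0.29 ± 0.12 that did not pass the test (adjusted p = 0.267). IRF9 (-0.76 ± 0.14), RIGI (-1.66 ± 0.21), IFIH1 (-0.72 ± 0.14) and EIF2AK2 (-0.52 ± 0.12) were also called lower in this contrast, and the EIF2AK2 call ended under 4 alternatives. The response without BX795 was measured in batch 1 against siNC. That with BX795 was measured in batch 2 against cells for which siNC transfection is not stated. BX795, batch and transfection of the reference therefore cannot be told apart here.

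**Figure D3:**
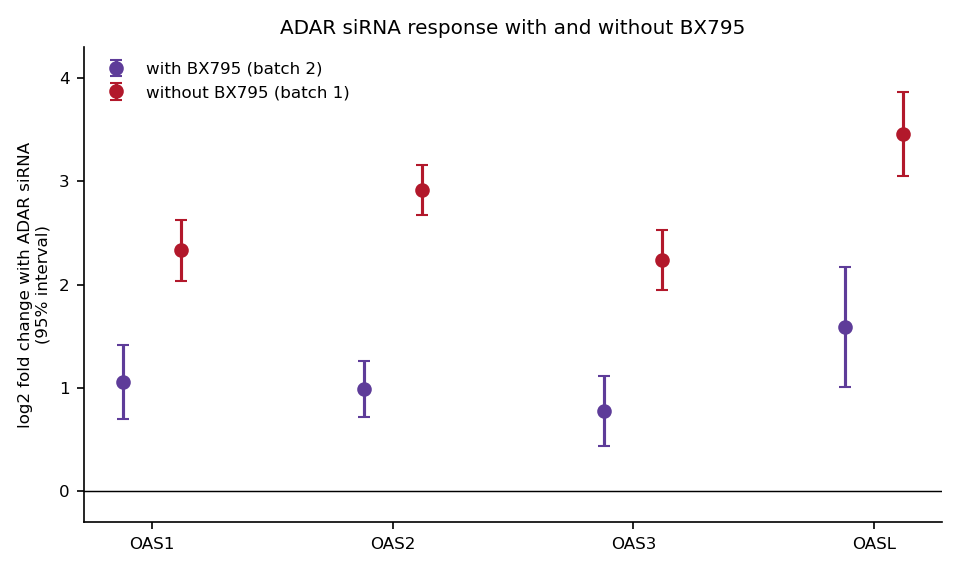
Log2 fold change with ADAR siRNA and its 95% interval (y axis) for each member (x axis), against BX795 in batch 2 (left point of each pair) and against siNC in batch 1 (right point). The intervals of each pair do not overlap, with OAS2 at 0.99 with BX795 and 2.92 without it.

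The response to ADAR siRNA minus that to IFNa, which also crosses the batches, was -2.59 ± 0.21 for OAS1, -2.40 ± 0.16 for OAS2, -2.52 ± 0.20 for OAS3 and -1.74 ± 0.30 for OASL. For cells with IFNa siNC transfection is not stated, so treatment, batch and transfection cannot be told apart in this difference. All 4 were called lower, where 15.5% of all tested genes were called lower and 13.2% higher, and the adjusted p-values ran from 3.05e-08 for OAS2 to 0.000399 for OASL (edgeR). Without siNC replicate 1 of batch 2 the differences were -2.61 (OAS1), -2.34 (OAS2), -2.35 (OAS3) and -1.61 (OASL), all called. The smallest gap was that of OASL, the member with the largest rise under ADAR siRNA.

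The make-up of the family's RNA per length also differed between groups. OASL held 9.5%, 9.6% and 10.5% of the summed CPM per kb with ADAR siRNA, against 5.9%, 4.7% and 5.4% with siNC. OAS2 held 31.9% to 33.6% with ADAR siRNA, against 24.6% to 27.0% with siNC, while OAS3 held 27.1% to 30.3%, against 33.8% to 37.6%. The shares of OASL and OAS2 were higher, and those of OAS1 and OAS3 lower, in each of the 3 ADAR siRNA libraries than in any siNC library. With IFNa, OAS2 held 43.0% to 44.8%, against 34.1% to 38.4% with siNC of batch 2, and OASL held 6.1% to 6.7%, overlapping the 5.5% to 6.5% with siNC. BX795 libraries had a like OAS2 share, 41.3% to 46.8%, at a summed level of 5.21 to 5.83 CPM per kb that overlapped the 5.12 to 6.09 CPM per kb of siNC. OAS2 held 43.6% to 44.6% with BX795 and ADAR siRNA, so its share was above siNC in every treated group of batch 2. OAS2 has the lowest GC content of the members (47.0%) and OAS3 the highest (54.3%). The siNC libraries of batch 2 also had the highest GC trend, and its part in these shares was not tested. These shares are a description of the libraries and were not tested.

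**Figure D4:**
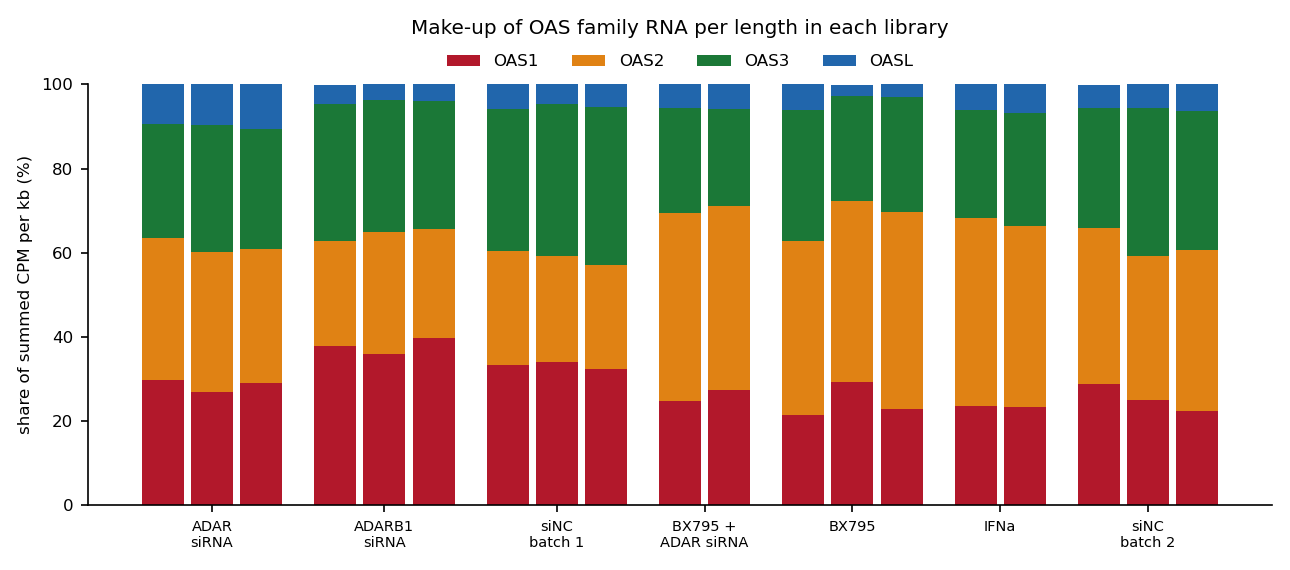
Share of each member in the family's summed CPM per kb (y axis, %), with 1 bar per library and libraries grouped on the x axis. OASL takes 9.5% to 10.5% in the ADAR siRNA libraries and at most 6.7% in all others, and OAS2 takes the largest share in the batch 2 libraries except siNC replicate 2.

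Across all 19 libraries, centred on the mean of their batch, the log2 CPM of the members followed each other closely, with Pearson's r between 0.965 (OAS1 and OASL) and 0.991 (OAS1 and OAS2). The genes most like the members' mean profile, among 15008 ranked genes with a symbol and at least 1 CPM in some group, were MX1 (r = 0.996), XAF1 (0.996), IFIT1 (0.995), IFI27 (0.995) and PARP12 (0.994). MX1 and IFIT1 encode antiviral effectors, and all 5 are known to be induced by interferon. For single members the nearest genes were XAF1, IFI44 and HERC6 for OAS1, and IFI44, IFIT3 and MX1 for OAS2. For OAS3 they were XAF1, IFIT1 and IFI27, and for OASL they were MX1, IRF9 and IFI27. All these values share the same libraries, and the 2 IFNa and 3 ADAR siRNA libraries hold most of their range. Of the 9 genes named, all in the promoter table, 5 held GNAANNGAAA in the 250 bases before their start, against 6.86% of all windows. The 9 genes were picked by their profiles in these libraries, and 1 promoter entry was read per gene, while the windows count every entry. The 2 shares are therefore a description and were not tested.

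The genes beside the cluster did not rise with it. PTPN11, a phosphatase gene before OAS1, differed by -0.18 ± 0.07 with ADAR siRNA (adjusted p = 0.0684, edgeR) and fell by 0.21 with IFNa (adjusted p = 0.0384) on the log2 scale. DTX1, which lies behind OAS2, differed by 0.17 ± 0.22 with ADAR siRNA (adjusted p = 0.66) and by -0.41 ± 0.30 with IFNa (adjusted p = 0.317). The other 4 RefSeq neighbours of the cluster did not reach the filter on low counts.

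**Figure D5:**
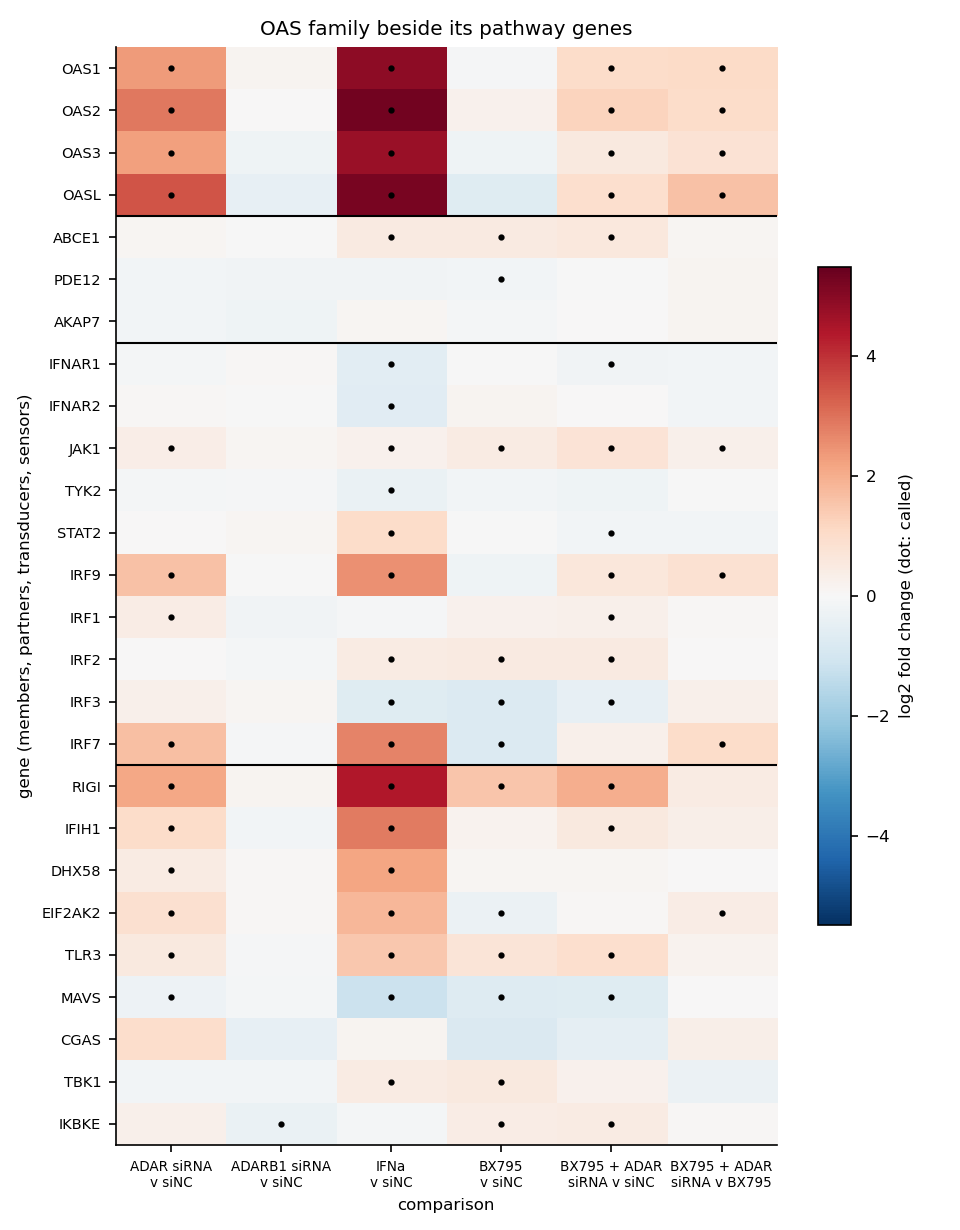
Log2 fold change (colour) of the 4 members, the 2-5A partners, the interferon signal transducers with IRFs and the double-stranded RNA sensors with relay genes (rows) in 6 within-batch comparisons (columns), with a dot where called. The members form the darkest block with ADAR siRNA and IFNa, next to RIGI, whereas the partners stay pale throughout.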

How the data were processed

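The authors deposited 1 table of estimated counts per gene, unscaled, made with STAR and Salmon on GRCh38.p14 per the submitters' processing notes. Versions, settings, annotation release and the strand option stand in no label used here. Libraries were directional and depleted of ribosomal RNA, per the labels' protocols. Counts were rounded, and gene-level counts cannot separate OAS1 isoforms or show how reads shared by the paralogues were split.

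The test was run across all genes (edgeR 4.0.16, R 4.3.3; TMM scaling, filterByExpr, quasi-likelihood F test, 1 mean per group, all 19 libraries, 12 residual degrees of freedom), with Benjamini-Hochberg adjustment over 23122 genes. The 95% intervals use these 12 degrees of freedom. The fit was tested on simulated data. Groups of 2 libraries borrow the spread of the others, and the spread is estimated over both batches together. Exon lengths came from GENCODE v29, positions and promoters from RefSeq (2 of 4 members have a promoter entry). Named were the members, both siRNA targets, the fixed pathway lists (some of their genes are not reported here), RefSeq neighbours and the genes of highest correlation. The family and the lists were chosen with earlier results of these data known, and the family's members were then taken by symbol. Alternatives were DESeq2 1.42.0 size factors and test, no filter, fewer groups, a replicate block, a GC correction and leaving out each library.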

Additional observations from a re-analysis of the deposited data

Results flagged for a closer look

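The response to ADAR siRNA differed between cells with and without BX795 for each member, by a test of the difference itself. The difference of log2 responses, with BX795 minus without, was -1.27 for OAS1, -1.93 for OAS2, -1.46 for OAS3 and -1.87 for OASL. Over 16 alternative fits it ran from -1.44 to -1.07 for OAS1, -2.05 to -1.81 for OAS2, -1.63 to -1.32 for OAS3 and -2.10 to -1.55 for OASL, and each member was called in each of them. The 2 responses come from different batches, and their references may differ in transfection, so BX795, batch and transfection cannot be told apart. With 2 or 3 libraries a group, single values were not screened for outliers.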

How the results depend on the processing

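The calls of all 4 members kept their direction and side of the threshold in every alternative for ADAR siRNA against siNC and against ADARB1 siRNA, IFNa against siNC, BX795 with ADAR siRNA against BX795 and against IFNa, and both differences of responses. Elsewhere the number of members called changed as follows, and the cause was not tested. With the compared groups alone, 1 member was called lower for ADARB1 siRNA, against 0, and 2 were called higher for BX795 with ADAR siRNA against siNC, against 4; leaving out single libraries gave 2 to 4 there. For BX795 against siNC, 1 member was called higher with no expression filter, and 0 to 1 were called lower when single libraries were left out. Uncalled values changed sign when single libraries were left out: OAS2 with ADARB1 siRNA ran from -0.06 to 0.09 and OAS1 with BX795 from -0.26 to 0.06. The GC correction turned TYK2 with IFNa to 0.03 and IRF7 with BX795 to 0.05.

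Counts of all genes called moved more. They ran from 3709 to 8222 for ADAR siRNA (main count 5041), 602 to 3633 for ADARB1 siRNA (1065), 3280 to 7774 for ADAR against ADARB1 siRNA (4520), 2129 to 9622 for IFNa (7931) and 8137 to 11627 for BX795 (10886). For BX795 with ADAR siRNA they ran from 4454 to 10428 against siNC (9305), 758 to 3349 against BX795 (2201) and 2351 to 6089 against IFNa (4699). The differences of responses gave 384 to 1418 (790, with and without BX795) and 3275 to 8591 (6638, ADAR siRNA and IFNa). Against siNC of batch 2 the GC correction gave 6044 for IFNa, 8206 for BX795 and 7851 for BX795 with ADAR siRNA, each below its main count. With each batch fitted alone, the counts of batch 1 rose, to 8222 for ADAR siRNA, 3633 for ADARB1 siRNA and 7767 for ADAR against ADARB1 siRNA. Those of batch 2 fell, to 4705 for IFNa and 8712 for BX795. For BX795 with ADAR siRNA they fell to 6829 against siNC, 758 against BX795 and 2763 against IFNa. The p-values and shares called in the main fit thus rest on a spread pooled over both batches. Replicate numbers were not used as pairs in the main fit. In batch 2, deviations of same-numbered libraries from their group means went together for IFNa and siNC (r = 0.5 and 0.24). So did those for BX795 with and without ADAR siRNA (0.29 and 0.33), while IFNa and BX795 with ADAR siRNA went apart (-0.47). In groups of 2 libraries the deviations mirror each other, so this check cannot settle if libraries were paired. With the replicate block no member's call changed. The counts of all genes included 686 for ADARB1 siRNA, 1415 for BX795 with ADAR siRNA against BX795 and 456 for the difference with and without BX795. Crossing the numbers of IFNa and BX795 with ADAR siRNA, a choice made after seeing the data, gave 4095 calls, against 3887 with the block as numbered.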
